A study of Mus musculus with 6 samples.

Results

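Neuronal intermediate filament transcripts were followed in mouse retina with a conditional knockout of Cyfip2 and in wild-type retina. The group was defined by gene symbol and has 5 genes, Nefl, Nefm, Nefh, Ina and Prph, of 24346 symbols in the files. All 5 were found in each library and all 5 passed the filter on low values, which kept the 13215 genes whose average over the libraries reached 1 FPKM. Retinal mRNA was sequenced in 6 libraries, 3 from conditional knockout retina (genotype Cyfip2 CKO) and 3 from wild-type retina (genotype Cyfip2 WT). The Cyfip2 protein belongs to the WAVE complex, which drives assembly of branched actin. The study asked what Cyfip2 deficiency does to the retinal transcriptome. The Cre driver, the targeted allele, age, sex and any pooling of animals were not stated in the labels.

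Intermediate filaments are the rope-like part of the cytoskeleton beside actin filaments and microtubules. In neurons they are copolymers. The light, medium and heavy neurofilament subunits, from Nefl, Nefm and Nefh, and alpha-internexin, from Ina, are type IV proteins, and peripherin, from Prph, is a type III protein that coassembles with them. The light subunit forms the core, and the long tails of the medium and heavy subunits project sideways, are heavily phosphorylated and help set the calibre of large axons. In the retina neurofilaments are best known from ganglion cells, whose axons form the optic nerve, and are also found in horizontal cells. Prph is a different gene from Prph2, which encodes a protein of the photoreceptor discs.

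Nefl and Nefm are neighbours on chromosome 14. In GENCODE M21 on GRCm38, Nefl has 4 exons and spans 68083863 to 68089095 on the plus strand, and Nefm spans 68082590 to 68124846 on the minus strand. That Nefm span includes a long isoform whose last exon lies opposite 1108 bp of Nefl exon sequence, from 68083863 to 68084970. In RefSeq the spans of the pair are 30449 bp apart. Neither the annotation nor the use of strand in counting was stated in the labels, so reads of Nefl and of this Nefm isoform may not have been separated. Nefh occupies 4938754 to 4948064 of chromosome 11 (minus strand), Ina on chromosome 19 from 47014698 to 47025327 on the plus strand, and Prph on chromosome 15 from 99055174 to 99058978 on the plus strand. The Ina span overlaps Nt5c2 on the opposite strand by 456 bp.

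Of the 5 genes, Ina and Prph matched an entry in the RefSeq promoter table (GRCm38.p6), and only these 2 are shown, as an account of where those genes start. The last 120 bases before the start are at chr19:47014561-47014680 for Ina and chr15:99055054-99055173 for Prph, both on the plus strand. The RefSeq span of Prph begins further upstream, at 99053579, so the Prph window lies inside that span. Capitals mark matches to TATAAA, the TATA box, or GGGCGG, the GC box, on either strand.
Ina: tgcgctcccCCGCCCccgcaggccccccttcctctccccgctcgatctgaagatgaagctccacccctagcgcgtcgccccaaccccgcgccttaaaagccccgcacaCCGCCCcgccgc
Prph: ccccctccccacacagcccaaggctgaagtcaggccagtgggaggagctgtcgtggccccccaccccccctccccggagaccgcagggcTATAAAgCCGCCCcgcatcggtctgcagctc
The Prph window held TATAAA beginning 31 bases before the start, a motif found in 12.4% of 32851 windows of 250 bases, and the Ina window did not hold it. Both held GGGCGG on the minus strand, as 32.7% of windows did on either strand. Neither held TGACGTCA, the cyclic AMP response element, which 1.55% of windows held. The motifs do not overlap in the windows shown. A match is a description of these letters only.

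The depth relative to WT 1, read from the steps of low values, was 1.04 to 1.3 in the CKO libraries, 1.08 in WT 2 and 1.06 in WT 3. The absolute depth is unknown, because FPKM, fragments mapped to a gene divided by transcript length and library size, keeps no read counts. Cyfip2 itself was at 8.33, 10.2 and 11.2 FPKM in CKO 1 to 3, against 35.5, 63.1 and 62.3 FPKM in WT 1 to 3. Its log2 fold change was -2.29 (SE 0.21, limma adjusted p = 0.0239), and WT 1 stood apart from the other WT libraries while still above every CKO library. The adjusted p of Cyfip2 by limma was 0.0663 to 0.197 without CKO 1, CKO 2, CKO 3, WT 2 or WT 3, where it no longer passed the threshold of 0.05, and its log2 fold change without those libraries was -2.37 to -2.15. Rlbp1 and Slc17a6, markers of Muller glia and ganglion cells, were detected in every library. The labels do not say whether the libraries of a group came from separate animals, so p-values measure only the spread between these libraries, which may be technical. In bulk tissue, fewer cells of a type and less RNA per cell cannot be told apart.

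The transcripts had the same order of level in all 6 libraries, Nefl above Nefm, then Ina, Nefh and Prph. FPKM is scaled to length, so levels can be set against each other. Over all libraries Nefl averaged 243.5 FPKM, Nefm 73.8, Ina 52.9, Nefh 39.4 and Prph 4.32 FPKM. Neighbours in this order did not overlap in any group: Nefm ranged from 64.9 to 87.0 FPKM, Ina from 49.2 to 55.6 and Nefh from 35.4 to 44.8 FPKM. Among tested genes Nefl stood at the 98.3rd percentile of level and Prph at the 20.9th. Nefl alone made up 58.2% ± 0.856 of the summed FPKM of the 5 genes in CKO and 59.3% ± 0.742 in WT (SD, n = 3 each).

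The 3 neurofilament subunit genes were each lower in every CKO library than in every WT library, by 15.6% to 19.0% of the WT mean, and Ina and Prph were not. None of the 5 genes passed the adjusted threshold. By limma at an adjusted p of 0.05, 0.00757% of the 13215 tested genes were called lower in CKO, which is Cyfip2 alone, and 0.0151% higher, which is 2 genes. The groups did not overlap with CKO lower for 3 of the 5 genes, against 6.95% of all tested genes. The same 3 genes had an unadjusted limma p under 0.05, as did 4.36% of all tested genes with CKO lower. All 5 log2 fold changes were below 0, with a median of -0.24, against 50.5% and a median of -0.0016 over all tested genes. Without WT 1, the WT library with the lowest Cyfip2, the log2 fold changes were -0.26 for Nefl, -0.30 for Nefm and -0.24 for Nefh. These were about as large as with it. Without WT 2, the highest library for these 3 genes, they were smaller, at -0.21, -0.25 and -0.20. No other library left out gave estimates as close to no difference for these genes.

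Nefl, the light subunit, was at 234.8, 214.6 and 213.9 FPKM in CKO 1 to 3, against 266.7, 285.5 and 245.7 FPKM in WT 1 to 3. The highest CKO library lay below the lowest WT library, and the WT libraries were spread more widely. The means were 221.1 ± 11.9 FPKM in CKO retina and 266 ± 19.9 FPKM in WT retina (SD, n = 3 each), 16.9% lower in CKO. On the log2(FPKM + 1) scale, which understates changes of low genes, the fold change was -0.26 (SE 0.07, 95% interval from limma -0.42 to -0.11). The limma p was 0.00388 before adjustment and 0.388 after Benjamini-Hochberg adjustment over all tested genes, and 0.969% of tested genes had a smaller p.

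Nefm, the medium subunit, was at 67.0, 64.9 and 66.4 FPKM in CKO 1 to 3, against 81.1, 87.0 and 76.6 FPKM in WT 1 to 3. The CKO libraries lay close together, and all were below the WT libraries. This was the largest relative difference of the 5 genes, 66.1 ± 1.06 FPKM in CKO retina and 81.6 ± 5.24 FPKM in WT retina (SD, n = 3 each), or 19.0% lower in CKO. The log2 fold change was -0.30 (SE 0.05, 95% interval from limma -0.42 to -0.17), with a limma p of 0.00059 before and 0.244 after adjustment. Nefm had the 32nd smallest p of all tested genes.

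Nefh, the heavy subunit, was at 36.6, 35.4 and 36.2 FPKM in CKO 1 to 3, against 42.2, 44.8 and 41.0 FPKM in WT 1 to 3. Again no CKO library reached the WT libraries, and the CKO values were tightly grouped. The means were 36.1 ± 0.602 FPKM in CKO retina and 42.7 ± 1.94 FPKM in WT retina (SD, n = 3 each), 15.6% lower in CKO. The log2 fold change was -0.24 (SE 0.05, 95% interval from limma -0.35 to -0.12), with a limma p of 0.00144 before and 0.304 after adjustment.

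Ina, alpha-internexin, was at 55.1, 49.2 and 52.0 FPKM in CKO 1 to 3, against 55.6, 53.2 and 52.2 FPKM in WT 1 to 3. The groups overlapped, with CKO 1 close to the highest WT library. The means differed by less than the spread between replicates, 52.1 ± 2.96 FPKM in CKO retina and 53.7 ± 1.75 FPKM in WT retina (SD, n = 3 each). The log2 fold change was -0.042, with a 95% confidence interval of -0.17 to 0.08 (limma adjusted p = 0.898). That interval does not reach the estimates for Nefl, Nefm and Nefh. It does overlap the intervals of Nefl (-0.42 to -0.11) and Nefh (-0.35 to -0.12).

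Prph, peripherin, was at 4.45, 3.19 and 4.77 FPKM in CKO 1 to 3, against 3.89, 5.28 and 4.33 FPKM in WT 1 to 3. The lowest value was CKO 2 and the highest WT 2, and the other libraries of both groups were intermixed. The means were 4.14 ± 0.834 FPKM in CKO retina and 4.50 ± 0.712 FPKM in WT retina (SD, n = 3 each). The log2 fold change was -0.10 with a wide 95% confidence interval of -0.45 to 0.24 (limma adjusted p = 0.911), which covers both no difference and the size seen for Nefm. Without CKO 2 the estimate was 0.035, so the sign for Prph rests on that library.

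**Figure D1:**
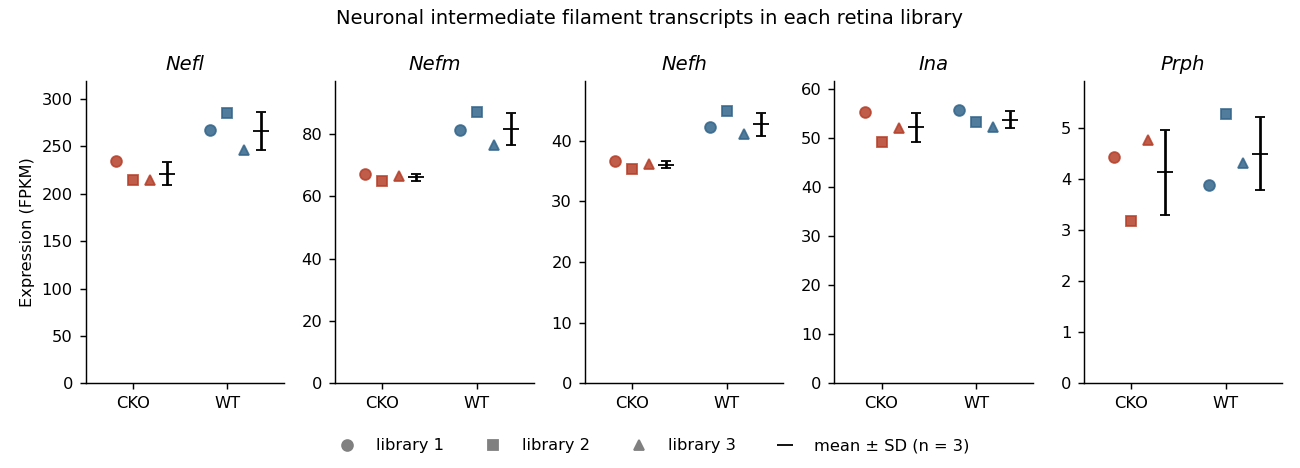
Expression in FPKM (vertical axes from 0, a separate scale for each gene) of the 5 genes in the CKO and WT libraries; symbols are libraries 1 to 3, and the black bar is the mean with SD. All CKO points lie below all WT points for Nefl, Nefm and Nefh, while the groups overlap for Ina and Prph.

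The plot of fold changes sets the 5 estimates against the range of all tested genes, of which the middle 90% lay between -0.22 and 0.20. Nefl, Nefm and Nefh lay outside that range on the low side. Counted from the lowest fold change, Nefm was at position 319, Nefl at 444 and Nefh at 582 of 13215, and 5.98% of tested genes had a log2 fold change of -0.2 or lower.

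**Figure D2:**
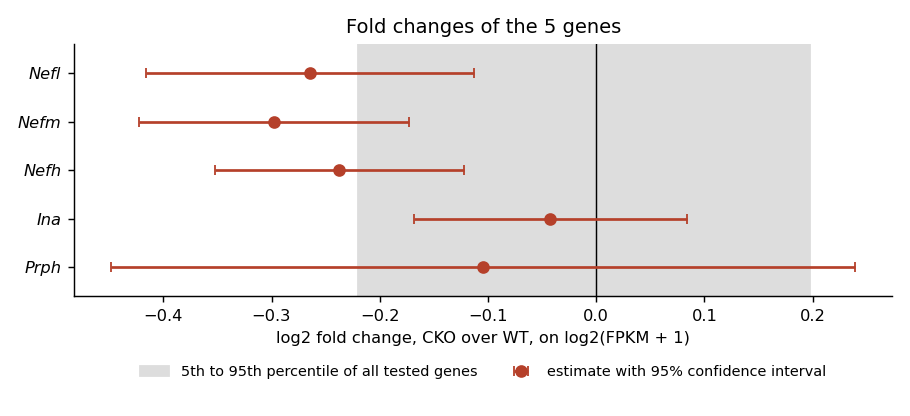
Log2 fold change of CKO over WT on the log2(FPKM + 1) scale (horizontal axis) for each gene, with the 95% confidence interval from limma; the grey band runs from the 5th to the 95th percentile of all tested genes, -0.22 to 0.20. The intervals of Nefl, Nefm and Nefh lie below 0 and those of Ina and Prph cross it.

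Because the subunits copolymerise, their transcript ratios were compared within each library, a measure that does not depend on how a library was scaled. Medium over light did not separate the groups, with a Nefm to Nefl ratio of 0.285, 0.303 and 0.310 in CKO 1 to 3, against 0.304, 0.305 and 0.312 in WT 1 to 3. The log2 difference was -0.037 (two-sided exact permutation test, p = 0.4). Reads of Nefl and of the long Nefm isoform may not have been separated, which limits what this ratio can show. Heavy over light was likewise mixed between groups, with a Nefh to Nefl ratio of 0.156, 0.165 and 0.169 in CKO 1 to 3, against 0.158, 0.157 and 0.167 in WT 1 to 3. Its log2 difference was 0.022 (exact permutation p = 0.8), and it was -0.0037 without CKO 3.

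Alpha-internexin over light did separate the groups. The Ina to Nefl ratio was 0.235, 0.229 and 0.243 in CKO 1 to 3, against 0.208, 0.186 and 0.212 in WT 1 to 3, and every CKO library was above every WT library. The means were 0.236 ± 0.00689 in CKO and 0.202 ± 0.0142 in WT (SD, n = 3 each), a log2 difference of 0.22 or a ratio 1.17-fold higher in CKO. The exact permutation p was 0.1, the smallest that 3 against 3 libraries allow, and 0.3 after adjustment over the 3 ratios. The difference was 0.16 to 0.26 when single libraries were left out. As a share of the summed FPKM of all 5 genes, Ina made up 13.7% ± 0.287 in CKO and 11.99% ± 0.711 in WT.

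**Figure D3:**
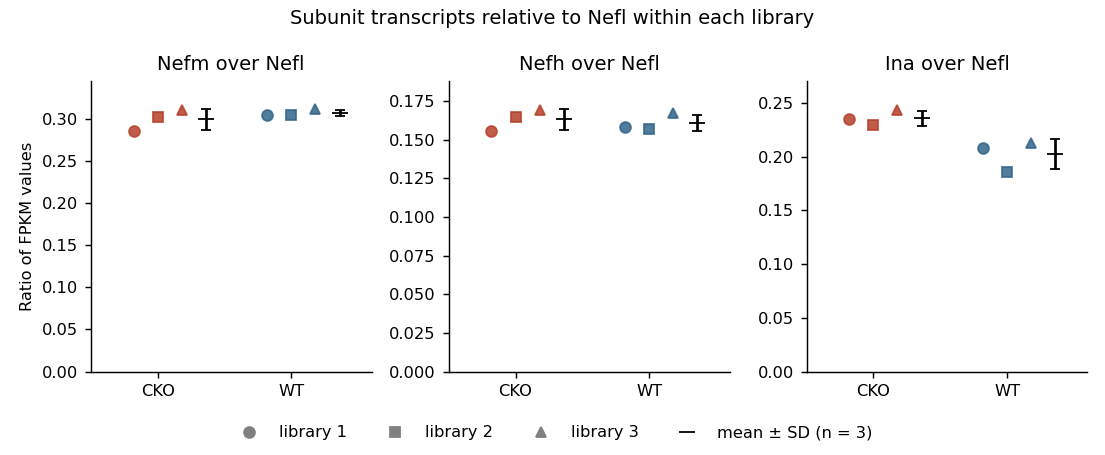
Ratio of FPKM values of Nefm, Nefh and Ina to Nefl (vertical axes from 0) in each CKO and WT library, with mean and SD in black. The groups overlap for Nefm and Nefh, and the Ina ratio is 0.229 to 0.243 in CKO and 0.186 to 0.212 in WT.

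WT 2 was the highest library and WT 3 the lowest of the WT group for Nefl, Nefm and Nefh alike, and the plot of deviations shows this beside the different pattern of Ina and Prph. The order was not shared in the CKO group, where CKO 1 was highest for all 3 genes but the lowest library was CKO 3 for Nefl and CKO 2 for Nefm and Nefh. Likeness was measured as the root mean square (RMS) difference over the 6 libraries between log2(FPKM + 1) values centred on each gene's mean, over genes averaging 5 FPKM or more. For Nefm the closest of 10074 genes was Nefh, at an RMS difference of 0.035, and Nefl was the 4th closest at 0.041. For Nefl, Nefm ranked 2nd and Nefh 5th, and for Nefh, Nefm ranked 4th and Nefl 21st. Ina ranked lower than the 3 subunit genes did, 1028th of 10074 genes for Nefl, 1657th for Nefm and 1461st for Nefh. Most genes were thus less close than Ina. Its RMS difference from Nefl was 0.128, against 0.153 for the deviation of Nefl from its own mean. The measure includes the CKO to WT difference itself and is a description of 6 libraries. Any reads not separated between Nefl and Nefm would also enter their likeness. WT 3 also differed in make-up, with 9.66% of its summed FPKM in its 10 highest genes, against 5.65% to 6.27% in the other libraries. The part of this in the shared WT order was not tested.

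Outside the 5 genes, the closest patterns to Nefl were those of Dbr1, the lariat debranching enzyme, at an RMS difference of 0.040, Mrpl22, a mitochondrial ribosomal protein gene, Mfap1a, a splicing factor gene, and Cdh18, a cadherin gene. The closest to Nefm were Wnt2b, a Wnt ligand gene, at 0.041, then Cdh18, Abhd17a, which encodes a depalmitoylating enzyme, and Lynx1, which encodes a membrane-anchored modulator of nicotinic receptors. Lynx1 at 0.031, Wnt2b, Calb2, the gene of the calcium buffer calretinin, and Abhd17a were closest to Nefh. Calb2 was at 286.4 ± 6.53 FPKM in CKO retina and 326.7 ± 13.6 FPKM in WT retina (SD, n = 3 each). Lynx1 was at 73.9 ± 2.52 FPKM in CKO retina and 85.5 ± 5.11 FPKM in WT retina. Neither passed the adjusted threshold (limma adjusted p = 0.388 for Calb2 and 0.418 for Lynx1).

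**Figure D4:**
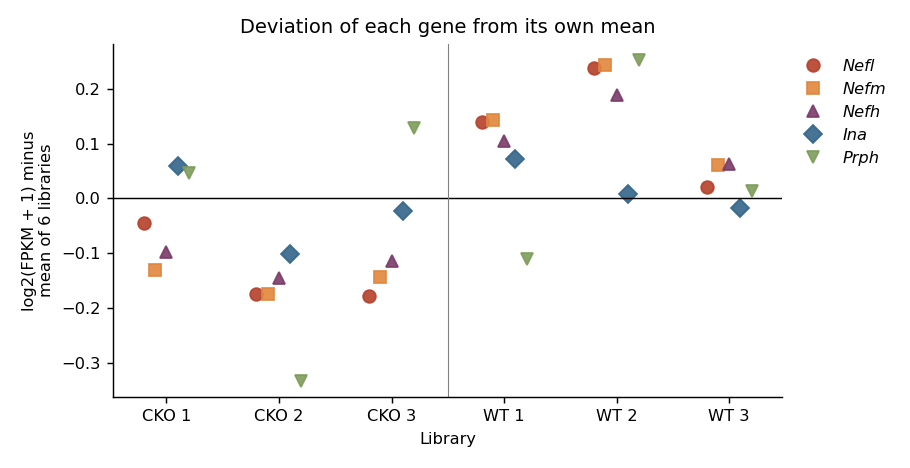
Deviation of log2(FPKM + 1) from the gene's mean over the 6 libraries (vertical axis) for each library, CKO left and WT right; symbols are the 5 genes, set slightly apart within a library. Nefl, Nefm and Nefh are below 0 in all CKO libraries and above 0 in all WT libraries, while Ina and Prph have values on both sides in each group.

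Genes that handle neurofilament proteins were read from lists, none of whose members passed the adjusted threshold unless named. Of 18 genes for transport along axons and for cross-linking to other filaments, 15 had log2 fold changes above 0, against 49.5% of all tested genes, and 3 below 0, with a median of 0.074. The groups did not overlap with CKO higher for 6 of them, against 6.96% of all tested genes, and with CKO lower for 1. Kif5a and Kif5c encode kinesin heavy chains that move neurofilaments along axons. Kif5a was at 74.1 ± 0.933 FPKM in CKO retina and 68.6 ± 1.31 FPKM in WT retina, and Kif5c at 68.1 ± 1.45 FPKM in CKO retina and 62.5 ± 0.38 FPKM in WT retina (SD, n = 3 each). The cross-linker gene Dst, which encodes dystonin, was at 28.1 ± 0.966 FPKM in CKO retina and 25.2 ± 1.74 FPKM in WT retina. The tau gene Mapt was at 68.5 ± 1.71 FPKM in CKO retina and 63.0 ± 1.02 FPKM in WT retina. These 4 of the 18 genes had an unadjusted limma p under 0.05 with CKO higher, as did 3.52% of all tested genes, and their adjusted p was 0.538 to 0.604. The direction of these genes was thus opposite to that of Nefl, Nefm and Nefh, and no test of this contrast was made.

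Of 22 genes for neurofilament kinases, phosphatases and turnover, 9 were above 0 and 13 below 0, with a median of -0.024. The kinase gene Gsk3b was at 37.9 ± 0.534 FPKM in CKO retina and 40.3 ± 0.729 FPKM in WT retina, and Cdk5r2, an activator of the neurofilament kinase Cdk5, at 64.0 ± 8.35 FPKM in CKO retina and 71.9 ± 6.76 FPKM in WT retina (SD, n = 3 each). Proteins that bind neurofilament mRNA were represented by 5 genes, 3 above 0 and 2 below 0 with a median of 0.0065, among them Ywhaq at 156.2 ± 4.11 FPKM in CKO retina and 167 ± 5 FPKM in WT retina. None of these 5 had an unadjusted limma p under 0.05.

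Of 24 other intermediate filament genes 13 were tested, 6 above 0 and 7 below 0, with a median of -0.013. Vim, the vimentin gene of Muller glia and horizontal cells, was at 115.7, 113.4 and 103.4 FPKM in CKO 1 to 3, against 120.5, 125 and 140.2 FPKM in WT 1 to 3. The groups did not overlap, and the log2 fold change was -0.21 (limma adjusted p = 0.53). Gfap, the filament gene of astrocytes and reactive Muller glia, was at 20.2, 9.94 and 11.0 FPKM in CKO 1 to 3, against 9.96, 10.3 and 36.2 FPKM in WT 1 to 3. It was named after its values were seen, since CKO 1 and WT 3 stood far above the other 4 libraries. The epithelial keratin genes Krt5 and Krt14 were listed at 0 in all libraries. Iffo2 was at 7.84 ± 0.13 FPKM in CKO retina and 7.17 ± 0.497 FPKM in WT retina.

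The membrane and scaffold genes of the axon initial segment and node, 17 in all, gave 7 above 0 and 10 below 0, with a median of -0.013. Fgf14, which encodes a sodium channel partner, was at 10.1 ± 0.441 FPKM in CKO retina and 8.65 ± 0.441 FPKM in WT retina (SD, n = 3 each; limma adjusted p = 0.572). Of the 13 tested genes of axon growth and regeneration, 6 were above 0 and 7 below 0, with a median of -0.064. Stmn4, a stathmin gene, was at 35.8 ± 1.41 FPKM in CKO retina and 28.1 ± 2.05 FPKM in WT retina (limma adjusted p = 0.269). Basp1 was at 141.2 ± 7.18 FPKM in CKO retina and 155.5 ± 4.46 FPKM in WT retina, and the neuronal tubulin gene Tubb3 at 129.6 ± 2.22 FPKM in CKO retina and 137.9 ± 0.701 FPKM in WT retina. The injury gene Sprr1a was listed at 0 in all libraries.

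Most markers of ganglion cells, and most of horizontal cells, also had fold changes below 0. Of 24 retinal ganglion cell markers other than the neurofilament genes, 7 lay above 0 and 17 below 0, with a median of -0.11. The groups did not overlap with CKO lower for 9 of them, against 6.95% of all tested genes, and with CKO higher for 3, against 6.96%. Chrna6, a nicotinic receptor subunit, was at 36.4, 38.2 and 38.8 FPKM in CKO 1 to 3, against 46.7, 45.9 and 45.4 FPKM in WT 1 to 3. Nrn1, which encodes neuritin, was at 32.0 ± 1.67 FPKM in CKO retina and 36.5 ± 0.827 FPKM in WT retina, and Spp1, osteopontin, at 3.26 ± 0.153 FPKM in CKO retina and 4.18 ± 0.365 FPKM in WT retina (SD, n = 3 each). Eomes, a transcription factor of intrinsically photosensitive ganglion cells, lay in the other direction, at 5.45 ± 0.481 FPKM in CKO retina and 3.86 ± 0.181 FPKM in WT retina. Their adjusted p by limma was 0.196 for Chrna6 and 0.336 to 0.546 for the other 3 genes.

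The summed level of these 24 ganglion cell markers was 672.7 to 699.3 FPKM in CKO retina and 719.4 to 735.1 FPKM in WT retina, a difference of 5.92% of the WT mean. None of the 24 was at 0. Divided by this sum, Nefl was at 0.349, 0.312 and 0.306 in CKO 1 to 3, against 0.371, 0.389 and 0.334 in WT 1 to 3. CKO 1 then lay above WT 3, so that the groups overlapped. Nefm divided by the sum was at 0.0996, 0.0945 and 0.0949 in CKO 1 to 3, against 0.113, 0.119 and 0.104 in WT 1 to 3, with no overlap. Nefh divided by the sum was at 0.0544, 0.0515 and 0.0518 in CKO 1 to 3, against 0.0587, 0.061 and 0.0558 in WT 1 to 3, again with no overlap. Relative to the markers, the CKO means of Nefl, Nefm and Nefh were 11.6%, 13.9% and 10.2% below the WT means, that of Prph was 2.23% below, and that of Ina was higher, at 0.076 in CKO retina and 0.0736 in WT retina. The sum leans on Sncg, the synuclein gamma gene, which made up 28.7% to 32.4% of it and was at 216.4 ± 9.05 FPKM in CKO retina and 215.3 ± 4.19 FPKM in WT retina (SD, n = 3 each). Single markers such as Pou4f1, Pou4f2 and Chrna6 were 13.8%, 14.1% and 17.8% lower in CKO retina, about as much as the neurofilament genes. Others differed less, with Rbpms, Thy1 and Chrnb3 8.04%, 7.49% and 0.0884% lower, and 7 of the 24 had log2 fold changes above 0. Divided by the geometric mean of the 24 markers, which weights each equally, the CKO means of Nefl, Nefm and Nefh were 11.9%, 14.1% and 10.5% below the WT means, and the groups again overlapped for Nefl alone of the 3. Both divisions were added after the data were seen, the single markers were picked with their values known, and none of this was tested.

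Of 12 horizontal cell markers, 1 was above 0 and 11 below 0, with a median of -0.18, and their summed level was 363.5 to 383.6 FPKM in CKO retina and 408.5 to 420.5 FPKM in WT retina. None was at 0. The sum leans on Ndrg1, which was at 196.1 ± 9.01 FPKM in CKO retina and 216.4 ± 6.43 FPKM in WT retina (SD, n = 3 each). The groups did not overlap with CKO lower for 7 of the 12, against 6.95% of all tested genes. Calb1, the calbindin gene, was at 26.2, 27.0 and 26.6 FPKM in CKO 1 to 3, against 31.1, 37.1 and 33.0 FPKM in WT 1 to 3. WT 2 was the highest library, as for Nefl, Nefm and Nefh, but the lowest of the WT group was WT 1 and not WT 3. The part of ganglion cell and horizontal cell markers in the neurofilament result was not tested.

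Amacrine cell markers lay in the other direction, with 13 of 15 above 0 and 2 below 0 and a median of 0.21, and a summed level of 793.3 to 824.5 FPKM in CKO retina and 693 to 722.9 FPKM in WT retina. Among them Tfap2b was at 72.8 ± 2.08 FPKM in CKO retina and 60.9 ± 0.127 FPKM in WT retina, and Gad1 at 122.3 ± 1.53 FPKM in CKO retina and 109.5 ± 2.56 FPKM in WT retina (SD, n = 3 each). The 2 below 0 were Slc18a3 and Chat. Slc18a3 was at 4.67 ± 1.07 FPKM in CKO retina and 6.49 ± 0.696 FPKM in WT retina, with no overlap (limma adjusted p = 0.572). Chat was at 6.57 ± 0.51 FPKM in CKO retina and 6.85 ± 0.475 FPKM in WT retina, with overlap. Cone markers had 1 of 10 above 0 and a median of -0.18, bipolar cell markers 2 of 14 and a median of -0.12, and rod markers 1 of 10 and a median of -0.059. The 12 Muller glia markers had a median of 0.0079 and included Dkk3, at 446.9 ± 29.2 FPKM in CKO retina and 233.9 ± 6.15 FPKM in WT retina, the only gene of the marker lists past the adjusted threshold (limma adjusted p = 0.00274). The medians were -0.13 for 6 tested astrocyte markers, -0.071 for 9 microglia markers, -0.11 for 8 markers of vessels and -0.011 for 3 of pigment epithelium. Isl1, Vim, Gfap and Sox10 each stood in 2 lists.

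Markers of tissue that holds axons outside the retina ranged from 0 to levels above that of Prph. Of 10 optic nerve oligodendrocyte markers 3 were tested, with a median of 0.0047, and their summed level was 24.2 to 27.0 FPKM in CKO retina and 25.4 to 28.4 FPKM in WT retina. The myelin gene Mbp was at 6.80 to 9.02 FPKM in CKO retina and 8.13 to 9.59 FPKM in WT retina, and Cnp, another myelin gene, at 14.4 ± 1.09 FPKM in CKO retina and 14.4 ± 1.38 FPKM in WT retina (SD, n = 3 each). Olig2 was listed at 0 in all libraries. Of 7 markers of Schwann cells and peripheral nerve, which is rich in peripherin, 2 were tested, both below 0 with a median of -0.21. Their summed level was 10.5 to 15.6 FPKM in CKO retina and 13.1 to 15.5 FPKM in WT retina. Most of that sum was Pmp22, a myelin protein gene, at 11.3 ± 2.19 FPKM in CKO retina and 12.1 ± 0.935 FPKM in WT retina, and Ncmap was at 1.05 ± 0.359 FPKM in CKO retina and 1.56 ± 0.552 FPKM in WT retina. The CKO and WT values of all 5 tested genes of both lists overlapped, as did those of most tested genes. The groups did not overlap for 6.95% of all tested genes with CKO lower and 6.96% with CKO higher.

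**Figure D5:**
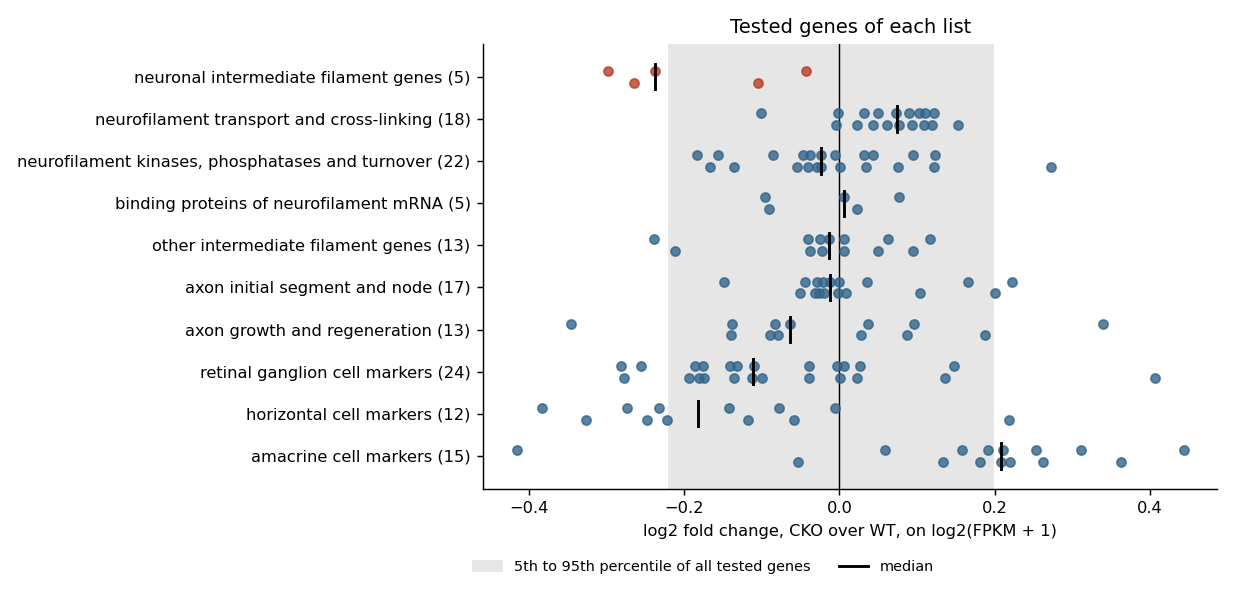
Log2 fold change of CKO over WT on the log2(FPKM + 1) scale (horizontal axis) for each tested gene of 9 lists and for the 5 neuronal intermediate filament genes (top, red); black bars are medians, numbers in brackets are tested genes, and the grey band is the 5th to 95th percentile of all tested genes. The medians are -0.24 for the filament genes, 0.074 for transport and cross-linking genes, -0.11 for ganglion cell markers, -0.18 for horizontal cell markers and 0.21 for amacrine cell markers.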

How the data were processed

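Retinal RNA was extracted with TRIzol and made into libraries with a TruSeq stranded mRNA kit, per the labels' protocols. Build mm10, Cufflinks 2.2.1, SAMtools 1.11, Bowtie2 2.3.5.1 and TopHat2 2.0.13 are named, without roles, per the submitters' processing notes. The deposited values are FPKM, 1 per gene symbol and library, a unit judged from the values and the named tools. In WT 3, 27 symbols turned into dates were restored by row from the remaining libraries, and 95.7% of symbols were found in GENCODE M21.

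Values were transformed to log2(FPKM + 1), and 13215 genes averaging 1 FPKM or more were tested two-sided (R 4.3.3, limma 3.58.1, eBayes with trend, no covariate, Benjamini-Hochberg at 0.05 over all of them). The fit was run on simulated data with known changes as a check of the procedure only. Its recovery of changes as small as those of Nefl, Nefm and Nefh is not reported here. The named genes are the 5 members, Cyfip2, up to 4 genes of smallest p and any called gene of each of 19 lists, and the 4 genes closest in pattern to Nefl, Nefm and Nefh, predicted genes left out. A few genes that this rule names are not reported here. The members, lists and tests were chosen with earlier results of these data known. No count test was run, since the files hold no counts. Replicate numbers were not taken as pairs, because the labels do not say that they pair the samples. Deviations from the group means correlated at 0.072, 0.006 and 0.101 between same-numbered libraries, and at -0.119 to 0.036 between libraries of other numbers. With 3 libraries in each group these values cannot decide on pairing. The alternatives were other pseudocounts, filters, scalings and variance models, the replicate block and each library left out in turn.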

Additional observations from a re-analysis of the deposited data

How the results depend on the processing

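Over the 15 alternative fits, Nefl, Nefm and Nefh had log2 fold changes below 0 in each, of -0.32 to -0.21, -0.34 to -0.25 and -0.26 to -0.20, and never passed the threshold (limma adjusted p of 0.291 to 0.792, 0.184 to 0.776 and 0.251 to 0.776). The ends of the fold change ranges came from the fits that left out a library. Ina ranged from -0.083 without CKO 1 to -0.0028 without CKO 2. Prph was at 0.035 without CKO 2, the only sign that turned among the 5 genes, and at -0.20 without CKO 3; the cause was not tested. Prph, with a mean of 4.32 FPKM, has no value at a minimum mean of 5 FPKM. The count of called genes was 3, with 1 without the variance trend, 4 with quantile normalization and 1 to 4 when a library was left out, lowest without WT 2. Cyfip2 missed the threshold without the filter (limma adjusted p = 0.074), without the variance trend (0.102) and with robust eBayes (0.111). A fit with the replicate number as a block gave 2 called genes and changed no call among the 5 genes, with limma adjusted p of 0.341 for Nefl, 0.301 for Nefm and 0.339 for Nefh. The log2 difference of the ratio to Nefl when a library was left out was -0.063 to -0.0023 for Nefm, -0.0037 to 0.056 for Nefh and 0.16 to 0.26 for Ina. Unknown absolute depth means that no counting interval can be set, which matters most for Prph.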
